A study of Arabidopsis thaliana with 2 samples.

Results

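The genes described are the 10 ZAT and AZF genes of *Arabidopsis*, which encode C2H2 zinc finger transcription factors. They are *ZAT5* (AT2G28200), *ZAT6* (AT5G04340), *ZAT7* (AT3G46090), *ZAT10* (AT1G27730), *ZAT11* (AT2G37430), *ZAT12* (AT5G59820), *ZAT18* (AT3G53600), *AZF1* (AT5G67450), *AZF2* (AT3G19580) and *AZF3* (AT5G43170). The set was chosen with earlier results of these data known. Its genes were taken by locus identifier, without a cutoff on their measured values, from the 33602 genes of the deposited table. All 10 were found in it. At least 1 read was assigned to 9 of them, and at least 10 reads over both libraries to 8.

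A C2H2 zinc finger is a short protein fold in which a pair of cysteines and a pair of histidines hold a zinc ion. A helix of the fold contacts DNA. In the plant-specific class to which ZAT and AZF proteins belong, each finger carries the amino acid motif QALGGH, and many of the proteins also carry an EAR motif, through which repressors recruit the TOPLESS corepressors and histone deacetylases. Transcripts of this group are known to appear within minutes to hours of cold, salt, drought, wounding, intense light or hydrogen peroxide, and *ZAT6*, *ZAT10* and *ZAT12* belong to the first wave of cold-induced genes that is switched on in parallel with the *CBF* genes.

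The transgenic plants were 35S:SsCBF1-11, line 11 of Col-0 plants that carry *SsCBF1*, a CBF transcription factor gene of the cold-hardy *Solanum lycopersicoides*, under the 35S promoter, which is active in most tissues at all times. They were set against Col-0 wild type without the transgene, to find genes that respond to SsCBF1. Both were 4 weeks old and were raised side by side without stress at 22°C, under days of 16 h light and nights of 8 h. RNA came from aerial parts, with 20 plants pooled into 1 library per genotype. The comparison therefore has no replicates and rests on 1 transgenic line, so differences due to SsCBF1, to the line and to the pool cannot be told apart. The transgene itself was not analysed here.

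The table assigned 6669454 reads to genes in the 35S:SsCBF1-11 library and 9120358 in the Col-0 library. Leaf transcripts dominated as the label says: *RBCS1A*, which encodes a Rubisco small subunit, had 112764 reads in 35S:SsCBF1-11 and 134636 in Col-0. The 4 root markers *EXPA7*, *COBL9*, *WOX5* and *IRT1* summed to 1 read in 35S:SsCBF1-11 and 2 in Col-0, with *EXPA7* and *IRT1* at 0 in both. The 5 flower markers summed to 12 reads in 35S:SsCBF1-11 and 295 in Col-0. By the rule for a call given below, 3 of them were called lower, beside 0.838% of all genes tested. They were *PI* with 3 against 30 reads, *GRP17* with 0 against 123 and *ATA27* with 0 against 103. These leaf and flower transcripts thus differed between the libraries, and their part in the results below was not tested.

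The 10 genes share the zinc finger that defines the class, and the DNA that encodes it is shown because it is the stretch the members have in common. Each coding sequence translates to exactly 2 QALGGH motifs, 20 in all, and the coding sequences range from *ZAT12* with 162 residues to *ZAT5* with 286. The triplet DLN, the core of one form of the EAR motif, is present in 8 of the 10 translations and absent from *ZAT7* and *ZAT12*. Another form of the motif, in which leucines alternate with any residue (LxLxL), was found once in *ZAT7* and 3 times in *ZAT12*, where the last copy ends 5 residues before the end of the protein, and was not found in *ZAT10* or *AZF3*. The first finger of 4 members reads as follows on the coding strand of the RefSeq genome TAIR10.1, with the codons of QALGGH in capitals.
ZAT6, chr5:1216711-1216740, minus strand: tcttacCAGGCTCTTGGTGGACACaaggca
ZAT10, chr1:9648686-9648715, minus strand: tcttacCAAGCTCTCGGTGGTCACaaggca
ZAT12, chr5:24103220-24103249, plus strand: tcgttcCAAGCCTTAGGAGGTCACcgtgcg
ZAT5, chr2:12024696-12024725, plus strand: tcgttcCAAGCACTTGGTGGACACagagcg
By identity of the whole coding sequence, *ZAT6* and *ZAT10* were the closest of the 45 pairs of members at 72.1%, followed by *ZAT11* and *ZAT18* at 71.1% and *ZAT7* and *ZAT12* at 69.8%.

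*ZAT6* was the only member called higher in 35S:SsCBF1-11, and no member was called lower. A call required an adjusted p under 0.001 (two-sided exact binomial test of the reads against the library totals, Benjamini-Hochberg over the 22319 genes with at least 1 read) and a fold above 2. This test compares 2 libraries, not the genotypes. Given their Col-0 reads, *ZAT6*, *AZF3*, *ZAT11* and *ZAT18* could not have been called lower at any number of reads in 35S:SsCBF1-11. *ZAT10* and *AZF1* would have needed 1 read or fewer there for a call as lower, and *ZAT7* 3 or fewer. Of all genes tested, 1.37% were called, 0.533% higher and 0.838% lower, beside 1 of the 9 members with reads. By size alone, 1 of the 8 members with at least 10 reads, again *ZAT6*, had a ratio above 2 and none had one below 0.5, against 1.89% and 5.14% of the 18443 genes with as many reads. In bulk tissue, fewer cells of a type and less RNA per cell cannot be told apart.

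**Figure D1:**
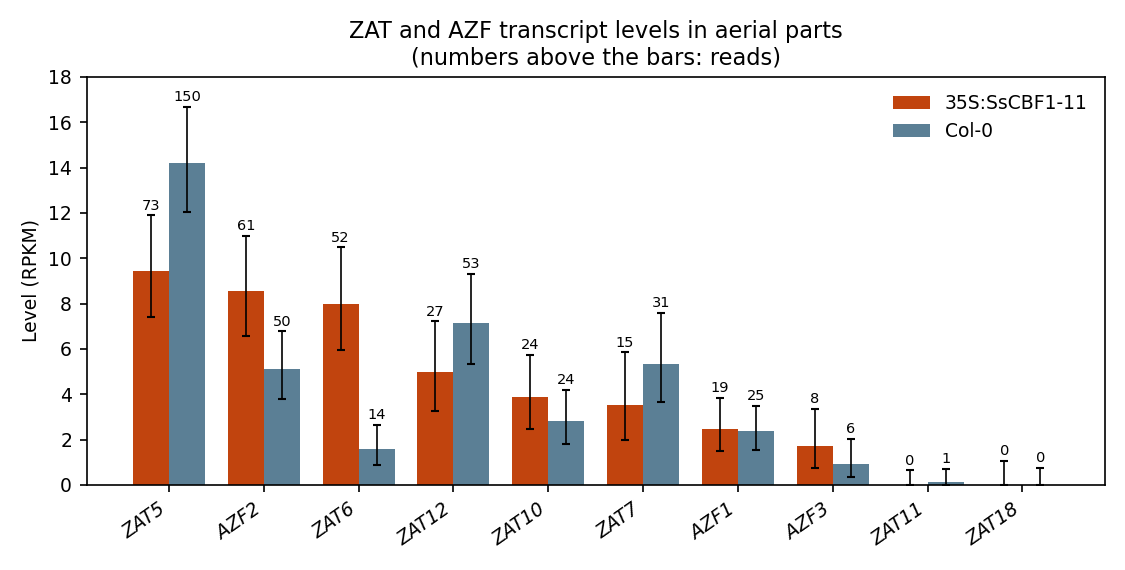
Level of each ZAT and AZF gene in RPKM (reads normalised to transcript length and to the library total) in the 35S:SsCBF1-11 library (orange) and the Col-0 library (blue), ordered by the 35S:SsCBF1-11 level, with the number of reads above each bar and exact 95% intervals that cover counting error only. *ZAT6* stands at 7.99 RPKM in 35S:SsCBF1-11 against 1.57 in Col-0 with intervals that do not overlap, and *ZAT11* and *ZAT18* are at or near 0 in both.

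*ZAT6*, also named *CZF2* for its induction by cold, encodes a transcription factor known from phosphate balance, root growth and responses to salt, cadmium and pathogens. It had 52 reads in 35S:SsCBF1-11 and 14 in Col-0. Per length, its level was 7.99 RPKM in 35S:SsCBF1-11 (95% interval 5.97 to 10.5) and 1.57 RPKM in Col-0 (0.860 to 2.64). The ratio of reads per total was 5.08 with an exact Clopper-Pearson 95% interval of 2.77 to 9.92, or 2.31 on the log2 scale (adjusted p = 8.35e-08, exact binomial test with Benjamini-Hochberg adjustment). The interval lies above 2 as a whole, but like all intervals given here it covers counting error alone.

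The level of *ZAT6* also moved within each library's own order of genes. In 35S:SsCBF1-11, 61.6% of the genes with reads had a lower RPKM value than *ZAT6*, against 28.0% in Col-0. Among the 119 genes called higher across the table, *ZAT6* ranked 34 by log2 ratio. Genes read to a like depth, from 33 to 132 reads over both libraries, numbered 5496, and 41 of these (0.746%) were called higher, *ZAT6* among them. If the pools are assumed to vary with a coefficient of variation of 0.2, a spread the data cannot measure, the call is lost (adjusted p = 0.0220 by edgeR's exact test), and over all alternatives the adjusted p of *ZAT6* ranged between 2.47e-08 and 1.

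The closest relative of *ZAT6* in coding sequence did not share a change of this size. *ZAT10*, or *STZ* for salt tolerance zinc finger, a repressor induced by salt, cold and intense light, had 24 reads in each library. That corresponds to 3.86 RPKM in 35S:SsCBF1-11 and 2.82 RPKM in Col-0, a ratio of 1.37 (0.744 to 2.51), with an interval on both sides of 1. The ratio of *ZAT6* was 3.71 times that of *ZAT10*, with an exact conditional 95% interval of 1.52 to 9.16 that does not depend on how the libraries are scaled. At this depth a call of *ZAT10* as higher would have needed 48 reads in 35S:SsCBF1-11, a ratio of 2.73, so a smaller change was not detectable.

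*AZF2* was the other member whose counting interval lay above 1, and it was not called. *AZF1* and *AZF2* encode repressors known to act on abscisic acid- and auxin-responsive genes under salt and drought, and *AZF3* is their relative known mainly from roots. *AZF2* had 61 reads in 35S:SsCBF1-11 and 50 in Col-0, or 8.56 and 5.13 RPKM, with a ratio of 1.67 (1.13 to 2.48). Its adjusted p was 0.0581 by the exact binomial test with Benjamini-Hochberg adjustment, and 77 reads would have been needed for a call. *AZF1* had 19 reads in 35S:SsCBF1-11 and 25 in Col-0, levels of 2.46 and 2.37 RPKM, and a ratio of 1.04 (0.541 to 1.97). *AZF1* thus stood close to the same level in both libraries, although its interval leaves room for nearly a doubling or a halving.

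*AZF3* was too thinly read to place. It had 8 reads in 35S:SsCBF1-11 and 6 in Col-0, with a ratio of 1.82 (0.555 to 6.38), and a call would have required 24 reads and a ratio of 5.47. It is also the only member that overlaps another gene, AT5G43160, which lies on the opposite strand over 408 bases and had 7 reads in 35S:SsCBF1-11 and 15 in Col-0. Whether the counting used the strand is not given in the sources used here, so reads of the 2 genes cannot be told apart. The ratio of *ZAT6* over that of *AZF3* was 2.79 with an interval of 0.668 to 10.9, which includes 1.

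*ZAT5* was the most highly read member in both libraries and the only one whose counting interval lay below 1, although it was not called. It had 73 reads in 35S:SsCBF1-11 and 150 in Col-0, levels of 9.45 and 14.2 RPKM. Its ratio was 0.666 (0.496 to 0.886), with an interval that lies below 1 as a whole. The adjusted p was 0.0391 by the exact binomial test with Benjamini-Hochberg adjustment, and ranged between 0.0216 and 1 over the alternatives. A call as lower would have required 54 or fewer reads in 35S:SsCBF1-11.

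*ZAT12* and *ZAT7*, a closely related pair, both had fewer reads per total in 35S:SsCBF1-11, with intervals on both sides of 1. *ZAT12*, also named *RHL41*, is known as a marker of oxidative and light stress and as a brake on *CBF* induction in the cold. It had 27 reads in 35S:SsCBF1-11 and 53 in Col-0, levels of 4.96 and 7.12 RPKM, and a ratio of 0.697 (0.421 to 1.13). *ZAT7*, known from salt tolerance, had 15 reads in 35S:SsCBF1-11 and 31 in Col-0, levels of 3.54 and 5.35 RPKM, and a ratio of 0.662 (0.332 to 1.26). Neither was called (adjusted p = 0.454 for *ZAT12* and 0.594 for *ZAT7*, exact binomial test with Benjamini-Hochberg adjustment). *ZAT7* is uncertain for a further reason, since its neighbour AT3G46080 shares 88.2% of its coding sequence and identical runs of up to 44 bases. That neighbour had 3 reads in 35S:SsCBF1-11 and 6 in Col-0. The reads described by the authors are longer than these identical runs, but how reads were aligned is not given in the sources used here.

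*ZAT11* and *ZAT18* were hardly read in these unstressed shoots. *ZAT11*, a hydrogen peroxide-responsive gene known from nickel tolerance and root growth, had 0 reads in 35S:SsCBF1-11 and 1 in Col-0. *ZAT18*, known from drought tolerance, had 0 reads in both. As a one-sided limit, a count of 0 allows up to 3 reads, which for *ZAT18* is 0.852 RPKM in 35S:SsCBF1-11 and 0.623 RPKM in Col-0. The two-sided intervals in the plot of levels end higher, at 1.05 RPKM in 35S:SsCBF1-11 and 0.766 RPKM in Col-0, so neither gene can be said to be absent or to differ between the genotypes.

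**Figure D2:**
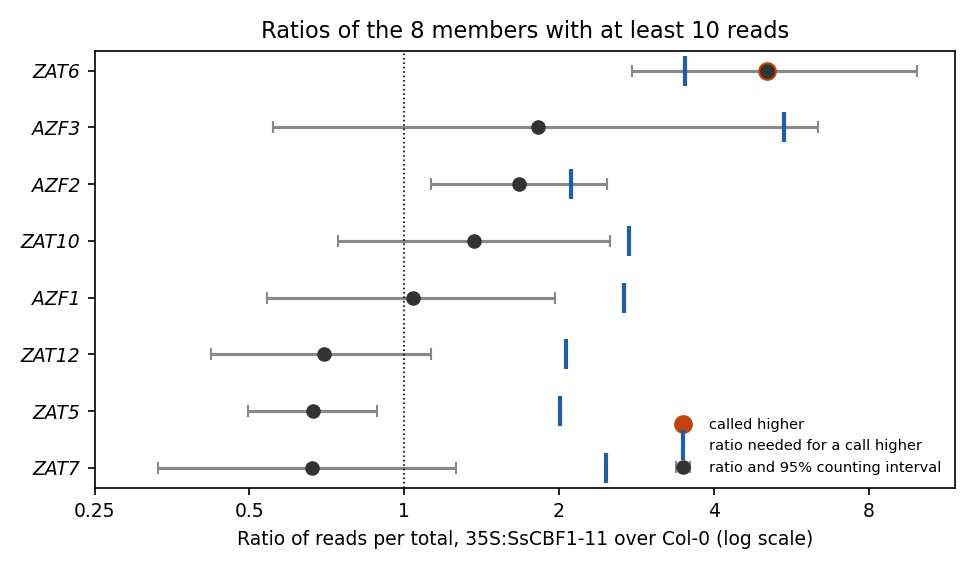
Ratio of reads per total, 35S:SsCBF1-11 over Col-0, on a log axis for the 8 members with at least 10 reads, with exact 95% counting intervals as grey bars and the ratio each gene would have needed for a call as higher as blue ticks. Only *ZAT6* (orange rim) lies beyond its tick, at 5.08 against 3.52, and *ZAT5* and *AZF2* are the other genes whose intervals do not reach 1.

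Counting intervals that exclude 1 were found for *ZAT6* and *AZF2* above 1 and for *ZAT5* below 1. Across the table, 20.4% of the tested genes had such an interval, 7.38% above and 13.0% below. Of the 8 members with at least 10 reads, 5 had ratios above 1 and 3 below 1, and these directions held under every scaling tried. With library totals, 7634 of all 18443 genes with as many reads had ratios above 1 and 10809 below. The members' median log2 ratio was 0.26, beside -0.07 over all 18443 genes, and without *ZAT6* it was 0.06 over 7 genes. The summed level of the 10 members was 42.5 RPKM in 35S:SsCBF1-11 and 39.6 RPKM in Col-0. Without *ZAT6* the sums were 34.5 RPKM in 35S:SsCBF1-11 and 38.1 RPKM in Col-0, a smaller summed level in 35S:SsCBF1-11.

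The members moved unequally between the libraries. The ratio of *ZAT6* was 7.63 times that of *ZAT5* (3.84 to 15.8), 7.68 times that of *ZAT7* (3.03 to 19.7) and 7.29 times that of *ZAT12* (3.25 to 16.7). It was 4.89 times that of *AZF1* (1.95 to 12.3) and 3.04 times that of *AZF2* (1.45 to 6.62). These intervals exclude 1 for each member named here and for *ZAT10*, while the interval against *AZF3* includes 1 and no useful bound was available against *ZAT11* or *ZAT18*.

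The members were also grouped by sequence relatedness, a grouping that was looked at after the values were seen and is given with no test. *ZAT6*, *ZAT10*, *AZF1*, *AZF2* and *AZF3* share 47.9% to 72.1% of their coding sequence with each other, and 5 of 5 had ratios above 1. Of all 18443 genes with at least 10 reads, 7634 had ratios above 1 and 10809 below. Together these 5 members had 164 reads in 35S:SsCBF1-11 and 119 in Col-0. *ZAT7*, *ZAT11*, *ZAT12* and *ZAT18* share 52.3% to 71.1% with each other. In that group the 2 members with at least 10 reads, *ZAT7* and *ZAT12*, had ratios below 1, and the group had 42 reads in 35S:SsCBF1-11 and 85 in Col-0. The edge of the *ZAT6* group is not sharp, since *ZAT5*, left out of both groups, shares 49.1% with *AZF1*. The least similar pair inside the group, *AZF2* and *AZF3*, shares 47.9%. *ZAT5* had a ratio of 0.666, so the 5 of 5 depends on where the group was drawn. *ZAT6* alone supplied 52 of the 164 reads, while of the other members in its group only *AZF2* had an interval that excluded 1.

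The order of the members by RPKM differed between the libraries. In 35S:SsCBF1-11 the order was *ZAT5*, *AZF2*, *ZAT6*, *ZAT12*, *ZAT10*, *ZAT7*, *AZF1* and *AZF3*, followed by *ZAT11* and *ZAT18* at 0. In Col-0 it was *ZAT5*, *ZAT12*, *ZAT7*, *AZF2*, *ZAT10*, *AZF1*, *ZAT6*, *AZF3*, *ZAT11* and *ZAT18*. *ZAT6* thus stood at position 3 in 35S:SsCBF1-11 and at position 7 in Col-0. *AZF2* stood at 2 in 35S:SsCBF1-11 and 4 in Col-0, *ZAT12* at 4 and 2, and *ZAT7* at 6 and 3. Most neighbours in these orders had overlapping intervals. The exceptions were *AZF3* and *ZAT11* in 35S:SsCBF1-11, and *ZAT5* at 14.2 RPKM (12.0 to 16.7) and *ZAT12* at 7.12 RPKM (5.33 to 9.32) in Col-0.

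**Figure D3:**
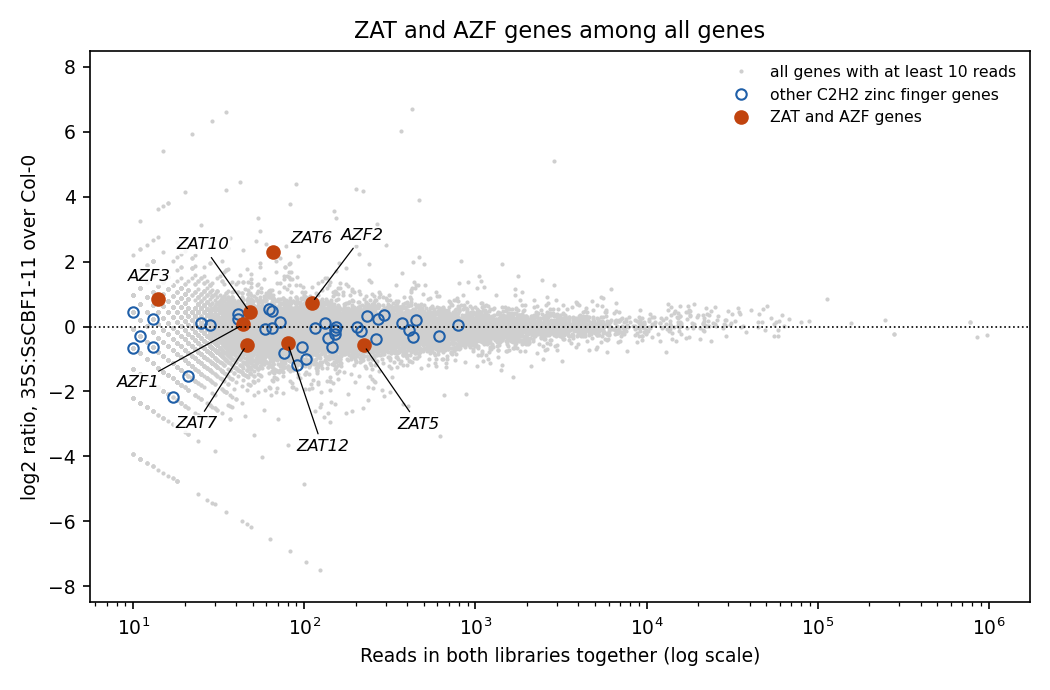
Log2 ratio, 35S:SsCBF1-11 over Col-0, against the reads in both libraries together (log axis) for the 18443 genes with at least 10 reads (grey), with 39 other C2H2 zinc finger genes as blue rings and the 8 ZAT and AZF genes as orange points. *ZAT6* at 2.31 lies above most genes of its depth, while the other members lie between -0.58 and 0.84.

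The DNA upstream of the members was examined because CBF proteins bind the CRT element, whose core is CCGAC. Within 1000 bases upstream of the annotated start, 6 of the 10 members held this core on either strand, and 37.4% of 27443 promoters of the same length did. There were 8 cores in all, and 6 of them were preceded by A or G, the base most CBF sites carry there. The cores are printed in capitals with up to 10 flanking bases, on the strand of the gene from RefSeq TAIR10.1, and GTCGG is the core read on the other strand.
ZAT6, chr5:1217503-1217527, minus strand: ggttaagtagCCGACttaatttggc
ZAT7, chr3:16927185-16927209, minus strand: aatgcatgaaCCGACgtcaaaaaaa
ZAT10, chr1:9649343-9649367, minus strand: agtcttatagCCGACctcttcttca
AZF2, chr3:6804297-6804311, minus strand: aaaaatttgaCCGAC
AZF3, chr5:17331921-17331945, minus strand: agtatatagcCCGACttgtgtaaca
ZAT18, chr3:19874542-19874566, plus strand: cgcctcctttGTCGGagaagaagag
ZAT18, chr3:19875190-19875214, plus strand: aatgtgccttGTCGGttaccaaaca
ZAT18, chr3:19875228-19875252, plus strand: cttgttagtgGTCGGtaatatgtaa
The core of *ZAT6* ended 150 bases before the start, that of *ZAT10* 29 bases, that of *AZF2* directly at it, that of *AZF3* 284 bases and that of *ZAT7* 311 bases before it. No core was found in this window of *ZAT5*, *ZAT11*, *ZAT12* or *AZF1*. The gene bounds used here are not always those behind the reads. *ZAT6* spans 1305 bases and *ZAT10* 1303 in RefSeq, against counted models of 976 and 933 bases, while *AZF3* has 702 in both. Distances to the starts of the counted models were not taken.

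Among the 8 members with at least 10 reads, holders and non-holders of the core were found on both sides of a ratio of 1. That rests on *ZAT7* (0.332 to 1.26) and *AZF1* (0.541 to 1.97), whose intervals include 1, as do those of *AZF3*, *ZAT10* and *ZAT12*. A link between core and ratio was not tested. With 1 core each, *ZAT6* had a ratio of 5.08, *AZF3* 1.82, *AZF2* 1.67, *ZAT10* 1.37 and *ZAT7* 0.662. With no core, *AZF1* had a ratio of 1.04, *ZAT12* 0.697 and *ZAT5* 0.666. *ZAT18* and *ZAT11* had too few reads for a ratio. A match of 5 letters is a description of the sequence and not of binding. The 200 bases before the starts of *ZAT6* and *ZAT10* are printed in full, since these are the closest pair in coding sequence and the one that was called and its nearest relative that was not, with the CRT core in capitals.
ZAT6, chr5:1217363-1217562, minus strand: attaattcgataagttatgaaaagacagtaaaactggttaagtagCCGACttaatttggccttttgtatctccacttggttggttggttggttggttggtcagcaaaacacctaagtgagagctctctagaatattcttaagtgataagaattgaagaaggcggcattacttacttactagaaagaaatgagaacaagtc
ZAT10, chr1:9649324-9649523, minus strand: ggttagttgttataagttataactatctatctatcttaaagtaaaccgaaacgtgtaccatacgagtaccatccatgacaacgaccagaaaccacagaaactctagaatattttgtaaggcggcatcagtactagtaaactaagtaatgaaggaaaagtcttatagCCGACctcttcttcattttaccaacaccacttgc

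**Figure D4:**
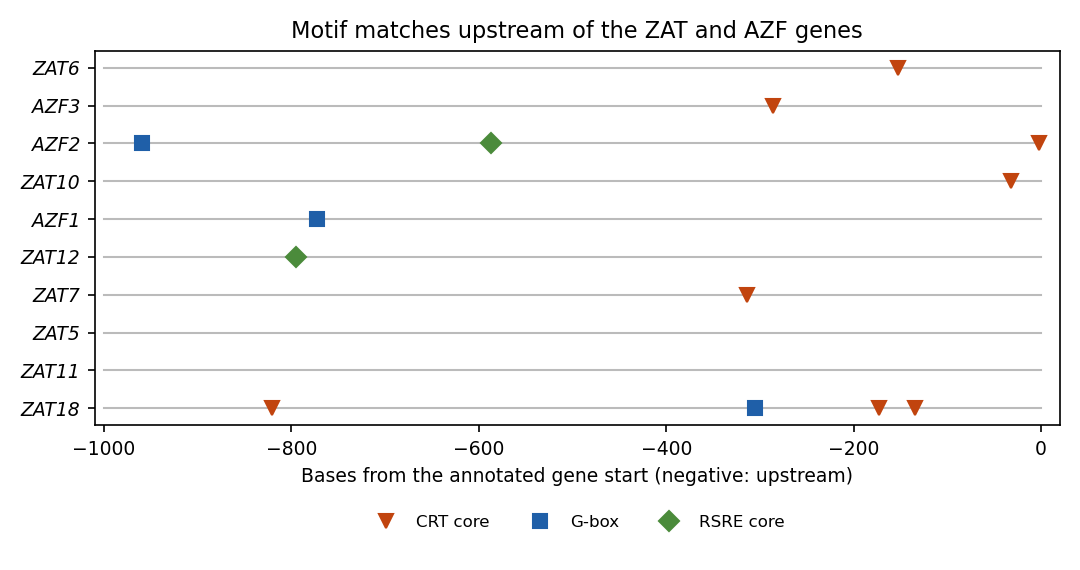
Positions of motif matches in the 1000 bases upstream of each member's annotated start (0), with members ordered from the highest log2 ratio at the top to those without a ratio at the bottom, for the CRT core (triangles), the G-box (squares) and the RSRE core (diamonds). CRT cores stand before *ZAT6*, *AZF3*, *AZF2*, *ZAT10*, *ZAT7* and *ZAT18*. Of these only *ZAT7* had a ratio below 1, with an interval that includes 1, and *ZAT18* had no ratio.

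Other stress-related motifs were fewer. The G-box CACGTG, a site of bZIP and bHLH factors, was found on either strand before *ZAT18*, *AZF1* and *AZF2*, and before 14.8% of all promoters. The RSRE core CGCGTT, a site of calmodulin-binding CAMTA factors of the rapid stress response, was found before *ZAT12* and *AZF2*, and before 8.66% of all promoters. Neither motif was found in this window of *ZAT6*, and no match overlapped another. All members but *AZF2* are annotated with a single exon, and *ZAT6* itself spans chr5:1216058-1217362 on the minus strand with 717 coding bases.

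Other C2H2 zinc finger genes were taken by their annotation text, which gave 90 genes and leaves out family members annotated otherwise. Of these, 57 had reads and 0 were called by the exact binomial test, close to the 1.37% called among all genes tested. At least 10 reads were assigned to 39 of them, with a median log2 ratio of -0.05, which was 0.02 with edgeR's TMM factors and 0.03 with DESeq2's size factors. Their counting interval excluded 1 above it in 1 gene and below it in 10 of the 39. Of all 18443 genes with as many reads, the interval lay above 1 in 1631 and below 1 in 2873. With library totals, 23 of the 39 ratios were below 1, and with TMM or DESeq2 factors 19 were. The gene with the lowest adjusted p was AT2G29660 with 22 reads in 35S:SsCBF1-11 and 69 in Col-0, a ratio of 0.436 (adjusted p = 0.00556, exact binomial test with Benjamini-Hochberg adjustment). *JKD*, which encodes a C2H2 factor known from root patterning, had 27 reads in 35S:SsCBF1-11 and 75 in Col-0.

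Lists of early cold regulators and of corepressors were set beside the members, while the cold-regulated target genes of the CBF pathway were not analysed here. Of 14 other early cold-response transcription factor genes, 12 had reads and none was called, beside 1.37% of all genes tested, with a median log2 ratio of 0.04 over 10 genes. The 3 CBF genes that precede the cold regulon were nearly silent in these unstressed plants: *CBF1* and *CBF3* had 0 reads in both libraries, and *CBF2* had 0 in 35S:SsCBF1-11 and 1 in Col-0. *RAV1*, an AP2/B3 factor that is induced early in the cold, had 194 reads in 35S:SsCBF1-11 and 203 in Col-0, a ratio of 1.31 (1.07 to 1.60). None of the 8 EAR corepressor genes was called, with *TPL*, which encodes TOPLESS, at 780 reads in 35S:SsCBF1-11 and 1241 in Col-0. Their median log2 ratio was -0.23, and 7 of 8 had ratios below 1, which became 6 of 8 with the upper quartile and 5 of 8 with TMM or DESeq2 factors. With library totals, 10809 of all 18443 genes with at least 10 reads had ratios below 1.

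Of 6 genes for MAP kinases and MAP kinase kinases, which include kinases known to phosphorylate ZAT6 and ZAT10, none was called. The share called among all genes tested was 1.37%. The most reads belonged to *MPK4* with 447 in 35S:SsCBF1-11 and 500 in Col-0. Of 10 genes reported in the literature to lie downstream of ZAT6, ZAT10 or ZAT12, none was called, beside the same 1.37%. Their median log2 ratio was -0.12 over 9 genes. *GSH1*, the first enzyme of glutathione synthesis, had 1371 reads in 35S:SsCBF1-11 and 1716 in Col-0, a ratio of 1.09 (1.02 to 1.17). *PR1*, a salicylic acid-responsive defence gene, had 361 reads in 35S:SsCBF1-11 and 847 in Col-0. Its ratio of 0.583 (0.514 to 0.660) had an adjusted p of 8.80e-17 by the exact binomial test, but its fold was below the threshold of 2. *PAD4* and *EDS1*, which act upstream of salicylic acid, had ratios of 0.749 and 0.770.

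Genes that respond within minutes to touch and wounding were examined because members of the family do so as well. None of these 18 genes was called, beside 1.37% of all genes tested, and their median log2 ratio was -0.23 over 16 genes. *ERF11* and *ERF4*, which like several ZAT genes encode EAR repressors, had more reads per total in 35S:SsCBF1-11, at 26 against 14 reads with a ratio of 2.54 (1.28 to 5.26) and at 136 against 106 reads with a ratio of 1.75 (1.35 to 2.28). *SIB1* had 65 reads in 35S:SsCBF1-11 and 167 in Col-0 with a ratio of 0.532 (0.393 to 0.713), and the touch genes *TCH2* and *TCH4* had ratios of 0.663 and 0.622. The list thus moved in both directions, and its part in the level of *ZAT6* was not tested. None of the 8 clock genes was called, beside the same 1.37%. With library totals, 10809 of all 18443 genes with at least 10 reads had ratios below 1. Of the 7 clock genes with as many reads, 6 had ratios below 1 (5 to 7 over the scalings tried), with a median log2 ratio of -0.38. *GI* had 58 reads in 35S:SsCBF1-11 and 120 in Col-0, a ratio of 0.661 (0.475 to 0.912), the only interval among them below 1. The 1 with a ratio above 1 was *CCA1* at 977 reads in 35S:SsCBF1-11 and 1304 in Col-0, a ratio of 1.02 (0.942 to 1.11).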

How the data were processed

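RNA-seq libraries of 35S:SsCBF1-11 and Col-0 were sequenced by the authors on an Illumina HiSeq system. Per gene and library, the authors deposited the counts of reads and RPKM values (reads per length and library total) for 33602 genes. Their columns of fold, log2 and q-value, and their pathway and Gene Ontology names, were left aside. TAIR10 and CASAVA 1.7 appear in the submitters' processing notes. How reads were aligned and counted, and whether strand was used, is not given in the sources used here. In 100% of genes the deposited RPKM values were equal to the deposited counts over listed length and library total (relative tolerance 1e-06).

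With 1 library per genotype, edgeR's quasi-likelihood test could not be fitted. Each of the 22319 genes with a read in either library was therefore tested by an exact binomial test (two-sided, expected share 42.2% for 35S:SsCBF1-11 from the library totals), with Benjamini-Hochberg adjustment over all of them. A call required an adjusted p under 0.001 together with a fold above 2 after adding 0.5 reads. Exact Clopper-Pearson 95% intervals, and the limit of 3 reads for a count of 0, cover counting error only, since 1 library per genotype gives no spread between pools. Reads without molecular identifiers are not independent molecules, so even the counting error may be larger than these intervals show. Medians were taken over genes with at least 10 reads in both libraries together. The procedure was tested on simulated counts drawn with counting error alone, as the test itself assumes. That cannot show how it behaves when pools vary.

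All 10 members are named. Of each of the 9 other gene lists, and of the other C2H2 genes, the rule selected the called genes and up to 3 genes per direction with the largest log2 ratio among those with at least 20 reads, and the text gives examples of these. *CBF1*, *CBF2*, *CBF3*, *TPL*, *TCH2*, *TCH4* and the root markers are list members outside that rule and were added after their values were seen. The members and lists were chosen with earlier results of these data known. Sequences came from the RefSeq TAIR10.1 genome and annotation, to which 32835 loci matched by identifier, *ZAT5* and *ZAT18* without a symbol. Alternatives were other scalings, filters, pseudocounts and thresholds, and an exact test in edgeR that assumes a spread between pools. The software was Python 3.11.15 (numpy 2.4.6; pandas 2.3.3; scipy 1.17.1; matplotlib 3.10.9; Biopython 1.88) and R 4.3.3 (edgeR 4.0.16; DESeq2 1.42.0).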

Additional observations from a re-analysis of the deposited data

How the results depend on the processing

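Across the table, 306 genes were called, 119 higher and 187 lower. A fold threshold of 1.5 gave 641 (232 higher, 409 lower) and a p threshold of 0.05 gave 602 (189 higher, 413 lower). When pools were assumed to vary by a coefficient of 0.1, 0.2 or 0.4, edgeR's exact test gave 146 calls (64 higher, 82 lower), 39 (18 higher, 21 lower) and 2 (2 higher, 0 lower). The fall in calls follows from the spread assumed, which 1 library per genotype cannot measure. DESeq2's size factors gave 136 higher and 141 lower, so that 49.1% of the calls were higher, against 38.9% with library totals.

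*ZAT6* kept its log2 ratio of 2.31, or 2.27 to 2.38 with other scalings, and its call under 10 of 12 alternatives. At an assumed coefficient of variation of 0.2 its adjusted p by edgeR's exact test was 0.0220 and at 0.4 it was 1, so that 0 of the 10 members were called in place of 1, and at 0.1 it was 6.95e-05. The other members stayed uncalled under every alternative that could be run for them, and no direction turned. No paired analysis was possible because each genotype has 1 library, and for the same reason no replicate could be left out. The depth limits the members: those with at least 10 reads would have needed ratios of 2.01 to 5.47 for a call as higher. A call as lower was out of reach for *ZAT6*, *AZF3*, *ZAT11* and *ZAT18*.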
